A study of Mus musculus with 8 samples.

Results

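Expression of 8 genes of sympathoadrenal identity and catecholamine synthesis was followed in mouse embryonic tissue from above and below the dorsal aorta: Th, Dbh, Ddc, Phox2a, Hand1, Hand2, Chga and Chgb. They were taken by name from the value table, whose rows carry Entrez numbers paired with symbols by the platform table, and all 8 were found among 24675 named genes. All 8 passed the filter on low values, which asks for a value over the median of the array on 4 or more of the 8 arrays, and so were among the 12416 genes tested. The embryos were of the C57Bl/6 strain at embryonic day 12.5, without any treatment or transgene. Dorsal tissue lay between notochord and aortic roof, ventral tissue lay below the aorta, and both were laser microdissected from the same embryos, with 4 arrays of each labelled as biological replicates 1 to 4. Levels are log2 RMA intensities from Affymetrix mouse Gene 2.0 ST arrays, on which a difference of 1 is a 2-fold change. RMA values of different genes rest on different probes, so no level of a gene is set against that of another here. Replicate number refers to the dorsal and ventral array that share it, and differences are ventral minus dorsal.

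Sympathetic neurons and adrenal chromaffin cells arise from neural crest cells that settle beside the dorsal aorta, where bone morphogenetic proteins from the aortic wall induce the noradrenergic programme. Phox2 homeodomain factors and the bHLH factors Hand1 and Hand2 act in that programme, and it ends in the enzymes that turn tyrosine into noradrenaline and in the granins of dense core granules, which store catecholamines. At this stage sympathetic chain ganglia and the forming adrenal medulla lie close to the aorta. Catecholamines from this tissue have been linked to the formation of blood stem cells in the region. Hand1 and Hand2 are also made by lateral and visceral mesoderm, and Ddc by several other tissues, so these 3 genes mark the sympathoadrenal lineage less strictly than Th, Dbh or Phox2a.

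The arrays were alike in scale, with medians over all rows of 3.59 to 3.65, and correlated across tested genes at r = 0.907 to 0.957 (genes are not independent replicates). Some arrays had high values for genes of other tissues. The spinal cord list averaged 4.10 on dorsal replicate 1 and 3.26 to 3.28 on the other dorsal arrays. Zic1 (6.72), Pax3 (5.70) and Lhx1 (4.92) made up most of that rise. Sox1 (3.46), Nkx6-1 (3.52) and Dbx1 (2.88) were highest among dorsal arrays there by smaller margins. Pax6, Olig2, Irx3 and Pax7 were each higher on another dorsal array. The erythroid list averaged 8.38 on dorsal replicate 4 and 6.67 to 6.87 on the other dorsal arrays. Among ventral arrays, the cardiac list averaged 4.49 on replicate 2 and 4.18 on replicate 4, against 3.55 and 3.70 on replicates 1 and 3. Sex-linked genes split the replicate numbers the same way in both tissues. Xist, the RNA that silences an X chromosome in female cells, was at 8.69 to 9.07 on the arrays of replicate 3 and at 2.50 to 2.85 on the other 6. The Y-linked Eif2s3y was at 1.99 to 3.00 on replicate 3 and at 6.67 to 8.17 elsewhere, and Kdm5d at 2.68 to 3.11 against 5.10 to 6.45. Replicate 3 thus differed from the other numbers in sex as well, and the part of this in its values was not tested. All 9 tested genes of the sclerotome and cartilage list had lower means in ventral tissue, 7 of them at an unadjusted limma p under 0.05. That list was chosen with earlier results of these data known, so it is no independent check of the labels. In limma with the replicate number as a block, 0 of 12416 genes passed an adjusted p under 0.05, which is 0% of genes tested. An unadjusted p under 0.05 was found for 1026 genes, or 8.26%, and without the block 4 genes (0.0322%) passed the adjusted threshold.

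The sequences in front of the members' annotated starts were searched, and are printed for Th, Dbh, Chga and Chgb, chosen for the widest spread between ventral arrays. They followed the same array order, as Phox2a did by small margins below ventral replicate 1. RefSeq (GRCm38.p6) windows were found for 7 of the 8 genes, the exception being Hand1, and Ddc has 2. Shown are the 250 bases before the start, 5′ to 3′ on the gene's strand. Capitals mark TGACGTCA, the cyclic AMP response element, or its shorter form TGACGT, and ATTA, the core bound by many homeodomain proteins, each on either strand. The Th window is chr7:142899996-142900245 (minus strand), that of Dbh chr2:27165257-27165506, that of Chga chr12:102554691-102554940 and that of Chgb chr2:132781392-132781641 (all plus strand).
Th: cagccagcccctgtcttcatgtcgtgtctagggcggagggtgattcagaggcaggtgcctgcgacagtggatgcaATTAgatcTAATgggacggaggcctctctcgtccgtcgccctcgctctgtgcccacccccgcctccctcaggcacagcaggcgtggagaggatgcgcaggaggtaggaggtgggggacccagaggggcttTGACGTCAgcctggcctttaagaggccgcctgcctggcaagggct
Dbh: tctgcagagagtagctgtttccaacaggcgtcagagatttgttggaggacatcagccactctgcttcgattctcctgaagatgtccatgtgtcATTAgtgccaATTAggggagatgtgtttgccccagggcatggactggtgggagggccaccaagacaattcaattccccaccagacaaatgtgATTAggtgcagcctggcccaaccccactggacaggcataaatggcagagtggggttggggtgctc
Chga: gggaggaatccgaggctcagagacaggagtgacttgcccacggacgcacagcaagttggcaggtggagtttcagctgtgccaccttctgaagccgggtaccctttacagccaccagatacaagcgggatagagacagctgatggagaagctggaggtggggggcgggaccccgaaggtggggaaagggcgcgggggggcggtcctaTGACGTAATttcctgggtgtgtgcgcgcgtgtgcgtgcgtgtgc
Chgb: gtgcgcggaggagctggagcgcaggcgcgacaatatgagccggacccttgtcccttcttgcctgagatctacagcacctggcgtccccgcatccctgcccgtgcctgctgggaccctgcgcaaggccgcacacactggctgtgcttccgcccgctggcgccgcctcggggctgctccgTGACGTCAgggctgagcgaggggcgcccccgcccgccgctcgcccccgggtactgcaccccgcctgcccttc
The full TGACGTCA stood 45 to 38 bases before the start in Th and 72 to 65 bases before it in Chgb. It occurs in 1.55% of the 32851 windows of this length in the RefSeq table. Chga held the shorter TGACGT 44 to 39 bases before its start, a form found in 6.47% of windows, and there its last base is shared with a TAAT, the ATTA of the other strand. Dbh held neither form but 3 ATTA matches, and Th held 2, in a window class where 54.9% of all windows hold at least 1. The Hand2 window held 5 ATTA matches and the Ddc windows 3 and 2, while Phox2a held none of these letters. CATCTG, an E box form, was found among the members in the Hand2 window alone and occurs in 14.4% of windows. These are letter matches, no binding was measured, and a link to the array order was not tested.

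Of the enzymes of noradrenaline synthesis, Th and Dbh ranged more widely over the ventral arrays than they differed between tissues, while Ddc was higher on every ventral than on any dorsal array. Th, tyrosine hydroxylase, the rate-limiting enzyme, stood at 4.40, 4.11, 4.10 and 4.94 on dorsal replicates 1 to 4 and at 8.12, 4.23, 6.55 and 4.63 on ventral replicates 1 to 4. Ventral replicates 1 and 3 lay above every dorsal array, and ventral replicates 2 and 4 lay inside the dorsal range. Dorsal Th averaged 4.39 ± 0.40 and ventral Th 5.89 ± 1.80 (SD, n = 4). The difference of 1.50 (SE 0.65, 95% interval -0.04 to 3.03) did not pass in limma (adjusted p = 0.61). As this is bulk tissue, fewer cells of a type and less RNA per cell cannot be told apart.

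Dbh, dopamine beta-hydroxylase, which makes noradrenaline from dopamine inside granules, showed the widest spread of the 8 genes. It was at 6.86, 6.47, 4.70 and 6.35 on the dorsal arrays and at 9.88, 3.94, 8.51 and 6.00 on the ventral arrays. Ventral replicates 1 and 3 were again above all dorsal arrays, but ventral replicate 2 was below all of them. The difference of 0.99 (SE 0.98) did not pass (limma adjusted p = 0.85), and by replicate number it went from -2.53 in number 2 to 3.81 in number 3. Dorsal Dbh was itself uneven, with replicate 3 well below the others.

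Ddc, aromatic L-amino acid decarboxylase, which turns L-DOPA into dopamine, was the only member whose tissues did not overlap. Dorsal values were 3.81, 3.77, 3.39 and 3.61, and ventral values were 5.37, 3.90, 5.04 and 5.05. The lowest ventral value, 3.90 in replicate 2, was just above the highest dorsal value of 3.81. Only 2 of the 4 dorsal values exceeded the median of their array, so background limits the size of this difference. It was 1.20 (SE 0.27), above 0 in 4 of 4 replicate numbers, with an unadjusted p of 0.003 and an adjusted p = 0.28 in limma. Among all genes tested, 2.01% had non-overlapping groups with ventral tissue higher, and 7.93% were higher in ventral tissue in 4 of 4 replicate numbers.

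**Figure D1:**
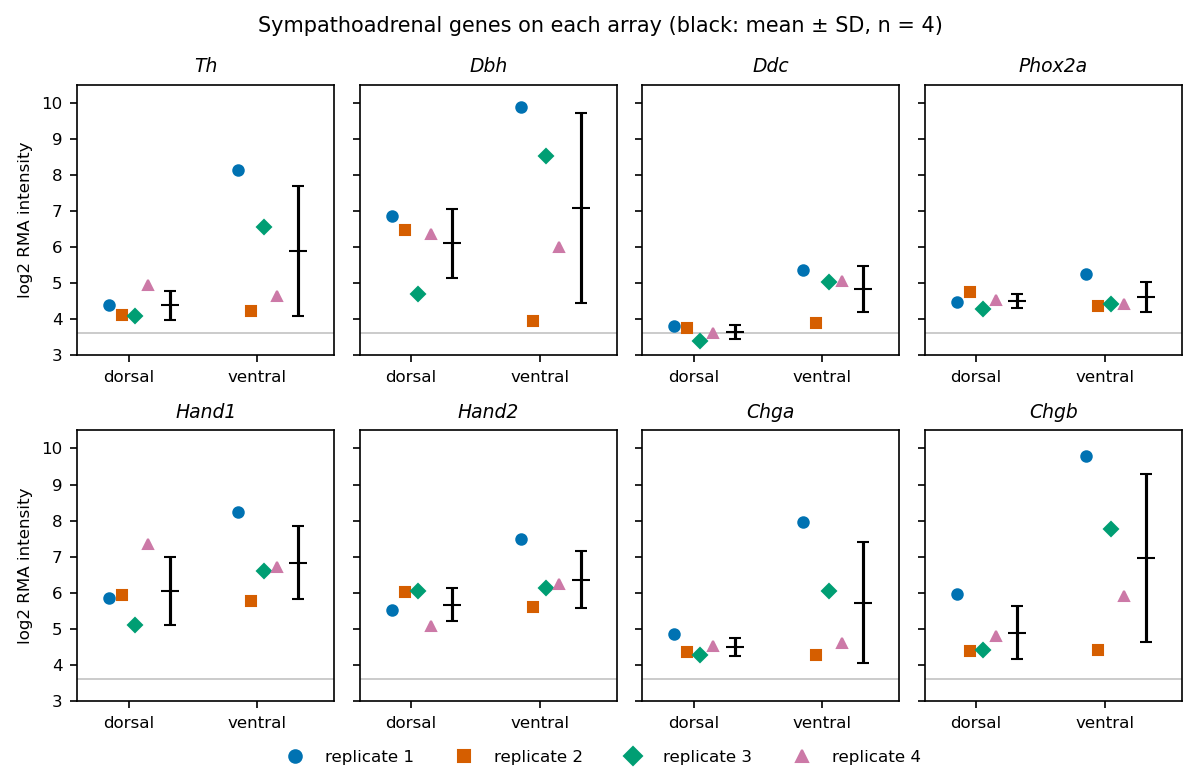
Log2 RMA intensity of the 8 genes on each array, by tissue, with the mean and SD of each tissue (n = 4) in black and the range of array medians, 3.59 to 3.65, as a grey band. Ventral replicate 1 is the highest of the 8 arrays for each gene, and ventral replicate 2 is the lowest ventral array for each.

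The transcription factors shared the highest and the lowest ventral array, replicates 1 and 2, with smaller steps between them than Th and Dbh. Unlike in Th and Dbh, ventral replicate 3 lay below replicate 4 for Hand1 and Hand2 and close to it for Phox2a. Phox2a, a homeodomain factor needed for noradrenergic neurons, was at 4.47, 4.77, 4.29 and 4.53 on the dorsal arrays and at 5.24, 4.36, 4.43 and 4.42 on the ventral arrays. It left the dorsal range on ventral replicate 1 alone, and its difference of 0.10 (SE 0.22, 95% interval -0.43 to 0.62) was the smallest of the 8 genes (limma adjusted p = 0.95). Hand2, which maintains noradrenergic differentiation, was at 5.53, 6.03, 6.05 and 5.09 in dorsal and at 7.49, 5.60, 6.15 and 6.25 in ventral tissue. Here 3 of the 4 ventral arrays lay above the dorsal range, and the difference was 0.70 (SE 0.38, limma adjusted p = 0.72). Hand1, the related factor, was at 5.85, 5.93, 5.11 and 7.34 in dorsal and at 8.23, 5.79, 6.62 and 6.72 in ventral tissue. Dorsal replicate 4, at 7.34, was above 3 of the 4 ventral values, and the difference was 0.78 (SE 0.49, limma adjusted p = 0.75). The 2 Hand genes did not share an order among dorsal arrays: the array highest for Hand1, dorsal replicate 4, was the lowest for Hand2.

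The granins among the members, acidic proteins that pack catecholamines into dense core granules, repeated the array pattern of Th. Chga, chromogranin A, was at 4.85, 4.37, 4.28 and 4.53 in dorsal and at 7.95, 4.28, 6.06 and 4.62 in ventral tissue. Ventral replicates 1 and 3 were above the dorsal range and the other 2 ventral arrays were not. Its difference was 1.22 (SE 0.52, limma adjusted p = 0.60). Chgb, chromogranin B, was at 5.97, 4.40, 4.42 and 4.81 in dorsal and at 9.79, 4.41, 7.76 and 5.93 in ventral tissue. It had the largest difference of the 8 genes, 2.07 (SE 0.61, 95% interval 0.62 to 3.53), 4.21-fold on the linear scale, with an unadjusted p of 0.012 and an adjusted p = 0.43 in limma. It was above 0 in 4 of 4 replicate numbers, but only by 0.02 in number 2.

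Across the tissues, 8 of 8 genes had higher means in ventral tissue, where 49.2% of all genes tested did, and 0 of 8 passed the adjusted threshold. Of the 8, Ddc and Chgb (2 of 8) had an unadjusted p under 0.05, against 4.08% of genes tested with ventral tissue higher. Without the block Ddc alone had such a p. The median difference of the 8 genes was 1.09 and that of all genes tested 0.00. It was 0.40 without ventral replicate 1, when 7 of 8 means were higher in ventral tissue and Phox2a was the exception. Leaving out ventral replicate 2 instead gave a median of 1.61. By replicate number, 2 of 8 genes were higher in ventral tissue in all 4 numbers, 3 in 3 numbers and 3 in 2 numbers.

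**Figure D2:**
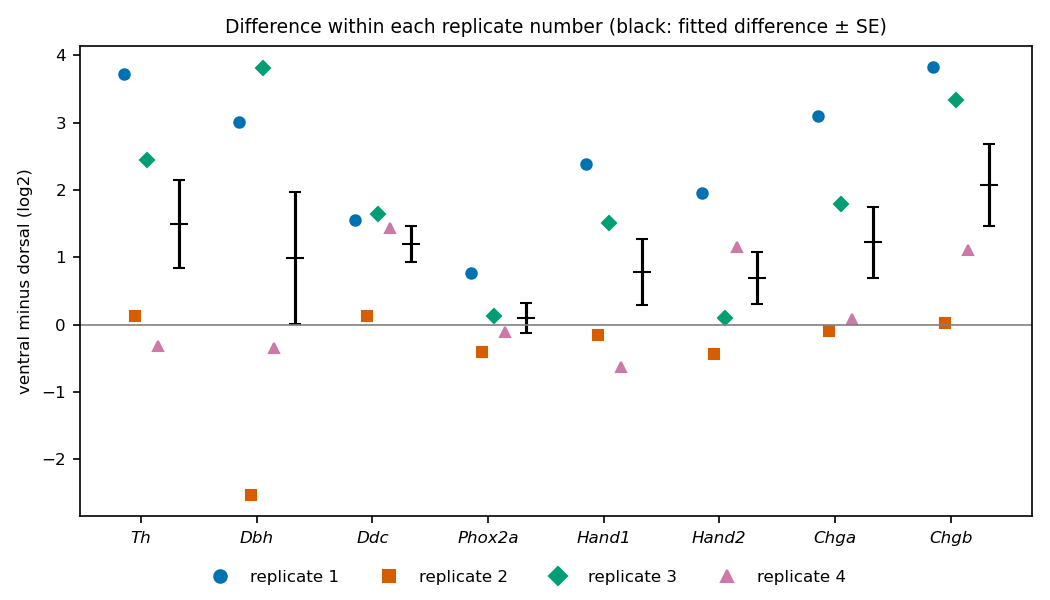
Ventral minus dorsal difference (log2) of each gene within each replicate number, with the difference fitted by limma and its SE in black. Replicate numbers 1 and 3 lie above 0 for all 8 genes, while number 2 lies between -2.53 and 0.14.

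The 8 genes shared the highest and the lowest array within ventral tissue. All 8 were higher on ventral replicate 1 than on any dorsal array, as 18.8% of genes tested were, and had the highest value of all 8 arrays there, as 11.6% did. All 8 were lowest among ventral arrays on replicate 2, as 28.3% of genes tested were. Th, Dbh, Phox2a, Chga and Chgb had the full order of replicates 1, 3, 4 and 2 from high to low, which 5.25% of genes tested had. For Phox2a the order below replicate 1 rests on small margins, at 4.43, 4.42 and 4.36 on replicates 3, 4 and 2. Ddc, Hand1 and Hand2 had replicate 4 just above replicate 3, by margins from 0.01 for Ddc to 0.10 for Hand1 and Hand2. With only 4 ventral arrays no correlation between genes is given over them, and genes that order the same 4 arrays alike are not independent observations.

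For 4 of the 8 genes the steps between ventral arrays ranked among the largest of all genes tested. Between ventral replicates 1 and 2, Dbh differed by 5.94, Chgb by 5.38, Th by 3.89 and Chga by 3.67, which were the ranks 2, 5, 10 and 18 of 12416 genes. Hand1 (2.44, rank 72), Hand2 (1.89, rank 129), Ddc (1.47, rank 247) and Phox2a (0.88, rank 768) differed by less. The pair of ventral replicates 3 and 2, which does not use replicate 1, gave Dbh the largest difference of all genes tested (4.57), with Chgb at rank 4 (3.34), Th at rank 31 (2.32) and Chga at rank 64 (1.79). In that pair Phox2a differed by 0.07, at rank 5646. Ventral replicates 4 and 2 differed by 2.06 for Dbh (rank 36) and 1.51 for Chgb (rank 119), but by 0.40 for Th and 0.34 for Chga. The SD over ventral arrays was above that over dorsal arrays for 8 of 8 genes, against 49% of all genes tested, with a median of 1.34 in ventral and 0.43 in dorsal tissue. The medians over all genes tested were 0.26 in both.

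Other genes of catecholamine handling were read from a list of 14 genes, of which 13 are in the table and 7 were tested. None passed the adjusted threshold, 6 of 7 had higher means in ventral tissue, and the median difference was 0.37. Slc18a2, the vesicular monoamine transporter VMAT2, was at 4.60, 4.33, 4.79 and 5.28 in dorsal and at 7.66, 3.92, 6.20 and 4.72 in ventral tissue. It thus had the array order of Th and Dbh, and ventral replicate 2 was below all dorsal arrays (difference 0.88, SE 0.58, limma adjusted p = 0.77). Maoa, monoamine oxidase A, which breaks catecholamines down, differed by 0.72 (SE 0.23, unadjusted p = 0.017, limma adjusted p = 0.46). Cyb561, the granule cytochrome that supplies electrons for Dbh, differed by 0.37 (SE 0.22) and was highest on ventral replicate 1, at 5.44, without which the difference was 0.09. Pcbd1, which recycles the biopterin cofactor, differed by 0.31 (SE 0.20) without that pattern, its highest ventral value being 6.27 on replicate 4, without which the difference was 0.04.

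Genes of that list under the filter still gave levels on single arrays. Gch1, which starts synthesis of the tetrahydrobiopterin that Th needs, was at 6.34 on ventral replicate 1 and at 2.86 to 3.51 on the other 7 arrays. Slc18a1, the vesicular transporter VMAT1 of chromaffin cells, was at 4.69 there and at 3.16 to 3.53 elsewhere. Pnmt, the enzyme that makes adrenaline from noradrenaline, was below the array median on all 8 arrays (2.42 to 3.27), and so was Slc6a2, the noradrenaline reuptake transporter (2.64 to 3.26). Catecholamine receptors were measured for 7 of 14 genes, of which Drd5 alone passed the filter (difference -0.13, SE 0.20), and 3 were under the median on all arrays.

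Dense core granule proteins and neuropeptides were split in direction, unlike Chga and Chgb. Of 20 genes, 19 are in the table and 9 were tested: 4 had higher and 5 lower means in ventral tissue, 0 passed the adjusted threshold, and the median difference was -0.01. The full ventral order of Th was found for 4 of the 9, against 5.25% of all genes tested. Resp18, a granule protein of neuroendocrine cells, was at 5.89 and 5.56 on ventral replicates 1 and 3 and at 3.28 and 3.41 on the other 2, but it did not pass the filter. On dorsal replicate 1 it was raised too, at 4.67 against 3.24 to 3.37 on the other dorsal arrays. Snap25, a protein of vesicle fusion, did not pass it either and was at 6.16 and 5.24 on the same ventral arrays against 3.18 and 3.43, and at 5.08 on dorsal replicate 1 against 3.02 to 3.30. Of the 19 genes, dorsal replicate 1 was the highest of all arrays for 6 and ventral replicate 1 for 5. The former include Scg2, a further granin, at 5.05, Scg3, a granin relative, at 6.28, and Scg5, a chaperone of a prohormone convertase, at 4.09. Scg2 differed by 0.05 (SE 0.20) between tissues, with the ventral order of Th. Npy, neuropeptide Y, a transmitter of sympathetic neurons, was highest on dorsal replicate 1 (8.29) and ventral replicate 1 (7.56) and between 4.08 and 5.10 elsewhere. Syt1, a calcium sensor of vesicle release, differed by 1.64 (SE 0.18, limma adjusted p = 0.072), with all 4 ventral arrays above the dorsal range. Cpe, a carboxypeptidase that processes peptides, differed by -0.76 (SE 0.25) and Rab3a, a vesicle GTPase, by -0.44 (SE 0.34), neither past the threshold (limma adjusted p = 0.47 and 0.79).

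Genes of neuronal differentiation were low on ventral replicate 2 as well, but several were also high on dorsal replicate 1. Of the 20 genes of that list, 19 are in the table and 13 were tested, with 7 higher and 6 lower means in ventral tissue, 0 past the adjusted threshold and a median difference of 0.13. The lowest ventral array was replicate 2 for 11 of the 13, against 28.3% of all genes tested. As many as 6 of the 13 had the full ventral order of Th, against 5.25% of all genes tested, so that order was not particular to the 8 genes. Of all arrays, dorsal replicate 1 was the highest for 5 and ventral replicate 1 for 4. Tubb3, the neuronal beta tubulin, was at 8.85 on dorsal replicate 1 and at 8.11, 3.87, 7.07 and 5.16 on the ventral arrays. Dcx, a protein of migrating young neurons, was at 8.03 on dorsal replicate 1 and at 4.67 and 4.30 on ventral replicates 1 and 2, a small step beside that of Th. Among the members, Dbh (6.86), Ddc (3.81), Chga (4.85) and Chgb (5.97) also had their highest dorsal value on dorsal replicate 1, Chgb against 4.40 to 4.81 on the other dorsal arrays. Th (4.40), Phox2a (4.47), Hand1 (5.85) and Hand2 (5.53) did not. Ret, a receptor for ligands of the GDNF family, stood at 4.56, 4.46, 4.55 and 4.47 on the ventral arrays. Its difference of 0.66 (SE 0.16, limma adjusted p = 0.30) was thus even over the ventral arrays, unlike that of Th. Ntrk3, a neurotrophin receptor, differed by 1.81 (SE 0.49, limma adjusted p = 0.36), with its highest values on ventral replicates 3 and 4 (7.58 and 7.05). Gfra1, a coreceptor of Ret, differed by -0.29 (SE 0.18).

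**Figure D3:**
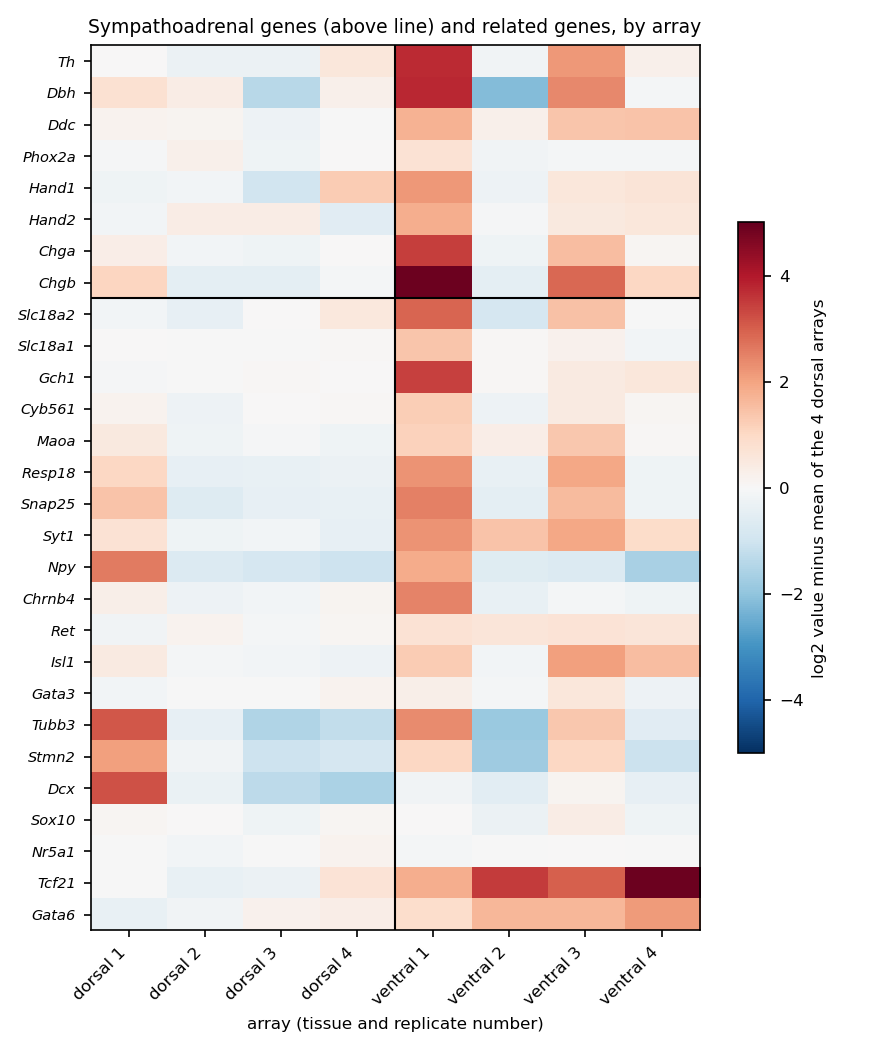
Log2 value minus the mean of the 4 dorsal arrays, for the 8 genes above the line and related genes below it, on each array. Slc18a2 repeats the steps of Th and Chgb over the ventral arrays, Tubb3, Stmn2 and Dcx are also high on dorsal replicate 1, and Tcf21 has its highest value on ventral replicate 4.

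Transcription factors of the lineage other than the members were tested for 11 of 14 genes, 12 of which are in the table. Means were higher in ventral tissue for 5 and lower for 6, 0 passed, and the median difference was -0.06. Isl1, a LIM homeodomain factor of sympathetic neurons and also of visceral mesoderm, was at 6.51, 5.13, 7.30 and 6.79 on the ventral arrays (difference 1.17, SE 0.36, limma adjusted p = 0.44). Its lowest ventral value was thus also on replicate 2. Gata3, a zinc finger factor needed for Th and Dbh expression, was at 4.92 to 5.21 in dorsal and at 5.32, 4.93, 5.59 and 4.78 in ventral tissue. It was highest on ventral replicates 3 and 1 but lowest on replicate 4, and its ventral SD of 0.37 was near the 0.42 of Phox2a. Eya1 differed by 0.70 (SE 0.37) and Tbx20 by 0.93 (SE 0.55), and both were highest on ventral replicate 1, at 7.67 and 6.50. Without that array the differences were 0.30 and 0.38, and Eya1 was at 0.38 without dorsal replicate 4.

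The next list held genes of chromaffin cells and of bridge cells, an intermediate between Schwann cell precursors and chromaffin cells. All 10 are in the table and 7 were tested. Of these 7, 5 were highest of the 8 arrays on ventral replicate 1, as 11.6% of all genes tested were. Among the 5, Dlk1 (7.46 against 7.40 on dorsal replicate 4) and Cox4i2 (5.75 against 5.66 on dorsal replicate 3) led by small margins. Ventral replicate 2 was the lowest ventral array for 2 of the 7, near the 28.3% of all genes tested. None of the 7 passed the adjusted threshold, 6 had higher means in ventral tissue, and the median difference was 0.45. Rgs5, a regulator of G protein signalling also made by pericytes, was at 8.35, 4.52, 7.21 and 5.60 on the ventral arrays and at 3.68 to 4.32 in dorsal tissue. It differed by 2.48 (SE 0.55, limma adjusted p = 0.27) and shared the ventral order of Th. Rgs4 was at 7.20, 3.66, 4.57 and 3.39 on the ventral arrays (difference 1.06, SE 0.52), and its difference was 0.23 without ventral replicate 1. Thbd, thrombomodulin, also an endothelial gene, went another way, with its lowest ventral value of 4.01 on replicate 1 (difference 1.10, SE 0.23, limma adjusted p = 0.24). It passed the threshold without ventral replicate 1 in the fit without the block (1.44, adjusted p = 0.036). Htr3a, a serotonin receptor of bridge cells, was below the array median on all 8 arrays (3.07 to 3.36).

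Ligands and receptors that act on sympathoadrenal precursors showed no common direction. Of 20 genes, 18 are in the table and 14 were tested, with 7 higher and 7 lower means in ventral tissue, 0 past the threshold and a median of -0.07. Sema3a, a repellent for sympathetic precursors, was at 5.94, 6.22, 6.99 and 6.57 in dorsal and at 4.41, 6.01, 4.47 and 4.16 in ventral tissue (difference -1.67, SE 0.38, limma adjusted p = 0.29). Its highest ventral value was on replicate 2, where Th, Dbh and the granins were lowest. Bmp7, a ligand that can induce noradrenergic differentiation, differed by -0.68 (SE 0.21, limma adjusted p = 0.44), and Igf1r, the IGF receptor, by -0.34 (SE 0.18).

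Markers of other cells moved with some of these arrays, and their part in the results was not tested. The Schwann precursor and neural crest list, 10 of 12 genes in the table, averaged 4.64, 3.80, 4.44 and 3.96 on ventral replicates 1 to 4, and 3.54 to 5.09 on the dorsal arrays. Sox10, its defining factor, stayed between 3.73 and 4.39 on all 8 arrays, lowest among ventral arrays on replicate 2. Of the 7 tested genes of the list, 4 had their lowest ventral value on replicate 2, as 28.3% of all genes tested did. Fabp7, a fatty acid binding protein of glial precursors, had the ventral order of Th, at 8.22, 4.43, 7.68 and 6.55, and was at 11.18 on dorsal replicate 1. Its step between ventral replicates 1 and 2 ranked 14 among all genes tested and that between replicates 3 and 2 ranked 5. Ednrb, an endothelin receptor of crest cells, and Sox2, a factor of neural and glial precursors, were also highest among ventral arrays on replicate 1 (6.72 and 4.93). Unlike the 8 genes, both were lowest on ventral replicate 4 (5.43 and 2.65), with 6.01 and 2.82 on ventral replicate 2. Sox2 was at 7.83 on dorsal replicate 1. The steroidogenic list, with all 12 genes in the table, averaged 3.19 to 3.57 in ventral and 3.14 to 3.58 in dorsal tissue, and 6 of its genes were under the median on all arrays. Nr5a1, the defining factor of adrenal cortex and gonad, was at 3.56 to 3.89 in dorsal and at 3.62 to 3.73 in ventral tissue, close to the array medians. Mc2r, the ACTH receptor of the same list, was at 5.09 on ventral replicate 3 and at 2.30 to 2.74 on the other 7 arrays. Hsd3b6, also of that list, was at 6.00 on dorsal replicate 4 and 4.94 on ventral replicate 4, and at 2.81 to 3.45 elsewhere. The cholinergic and enteric list, with all 8 genes in the table, averaged 3.71 to 4.06 in ventral and 3.55 to 4.03 in dorsal tissue, and Chat was under the median on all arrays (2.75 to 3.08). Slc5a7, the choline transporter of the same list, was at 6.43 on ventral replicate 3, where Th, Dbh and the granins were high, and at 2.99 to 3.52 on the other 7 arrays. The sensory neuron list, 8 of 10 genes in the table, averaged 3.50 to 3.61 in ventral and 3.56 to 3.92 in dorsal tissue. The spinal cord list, with all 10 genes in the table, averaged 3.06 to 3.12 in ventral tissue.

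Visceral mesenchyme is a second source of Hand1 and Hand2. Its list mean was lowest among ventral arrays on replicate 1, where the 8 genes were highest. Among dorsal arrays it was highest on replicate 4, where Hand1 was highest too. That list, with all 12 genes in the table, averaged 4.49, 5.45, 5.02 and 5.74 on ventral replicates 1 to 4 and 4.18 to 4.87 on the dorsal arrays. Tcf21, a factor of that mesenchyme, was at 4.93, 6.61, 6.08 and 8.01 on the ventral arrays, with replicates 1 and 3 at the low end. Hand1 and Hand2 had their highest values on ventral replicate 1, and both were slightly higher on ventral replicate 4 than on ventral replicate 3. On dorsal replicate 4 the list averaged 4.87, Tcf21 was at 3.80 and Hand1 at 7.34, while Hand2 was at its lowest, 5.09. The part of this mesenchyme in the Hand values was not tested. The cardiac list averaged 3.55, 4.49, 3.70 and 4.18 on ventral replicates 1 to 4 and 3.65 to 3.74 on the dorsal arrays. It was thus highest on ventral replicate 2, where the 8 genes were lowest among ventral arrays. Myl7 was at 7.47 and 6.30 on ventral replicates 2 and 4 and at 3.17 to 3.69 in dorsal tissue. Tbx5 was at 6.34 on ventral replicate 2 and at 3.70 to 4.39 on the other arrays. Nppa, Nkx2-5 and Tnnt2 had no such rise there. The macrophage list averaged 5.37 on ventral replicate 1, 4.72 to 5.06 on the other ventral arrays and 4.26 to 4.75 in dorsal tissue. The endothelial list averaged 4.73 to 5.05 in ventral and 4.02 to 5.36 in dorsal tissue.

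**Figure D4:**
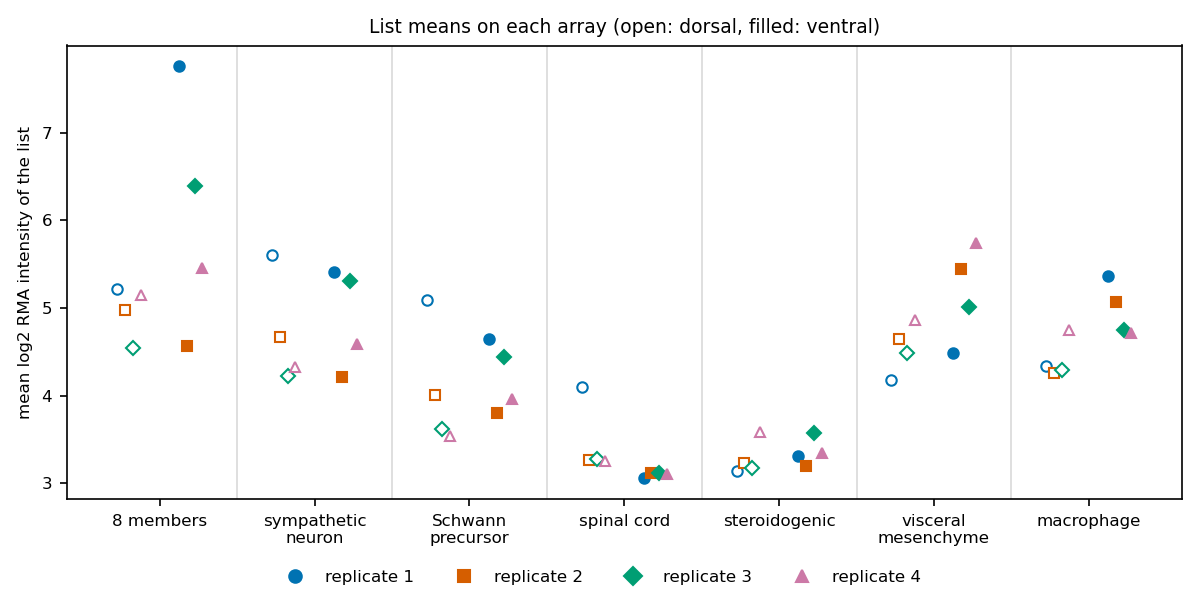
Mean log2 RMA intensity of the 8 genes and of 6 other gene lists on each array, dorsal open and ventral filled. The 8 genes average 7.76 and 6.39 on ventral replicates 1 and 3 and 4.56 on ventral replicate 2, while visceral mesenchyme averages 4.49 on ventral replicate 1.

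Genes most like the members over all 8 arrays were ranked by Pearson r with the mean of the members' standardised values, a description without a test. The members themselves had r from 0.82 for Phox2a to 0.98 for Chga with that mean, of which each is a part. Of 12408 other genes, 43 had r above 0.9, and all points share the same 8 arrays. The 10 highest were Poli, Dgkk, Heyl, Nit1, Gdap1l1, Zar1, Ndufa4l2, Pphln1, Dgkh and Gstm4, with r from 0.98 to 0.94. Their ranges over the ventral arrays ran from 0.46 for Nit1 to 5.62 for Dgkk. Dgkk, a diacylglycerol kinase, was at 9.14, 3.52, 5.30 and 4.77 on the ventral arrays and 3.41 to 3.70 in dorsal tissue (difference 2.10, SE 0.79, limma adjusted p = 0.55). Dgkh, another diacylglycerol kinase, was at 5.68, 4.26, 5.03 and 4.33 on the ventral arrays. Heyl, a bHLH target of Notch signalling, reached 5.40 on ventral replicate 1 and stood between 4.61 and 5.03 elsewhere.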

How the data were processed

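Expression was measured on 1-colour Affymetrix mouse Gene 2.0 ST arrays. Picogram amounts of RNA from the microdissected tissue were amplified before labelling, per the labels' protocols, which can add spread between arrays for weakly expressed genes. The authors' deposited values are log2 intensities made with Affymetrix Expression Console and RMA, per the submitters' processing notes, with versions not given in the sources used here. RMA equalises the arrays, so differences are relative to other genes.

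Of 25429 rows, 24675 had 1 symbol. Genes above the array median on at least 4 of 8 arrays were tested (12416) with limma 3.58.1 in R 4.3.3 (lmFit, eBayes with trend and robust estimation), two-sided, with a fixed block for replicate number, Benjamini-Hochberg over all genes tested and a threshold of 0.05. The block was kept because the labels take both tissues from the same embryos. Arrays of the same number deviated from the mean of their tissue with r = 0.02 to 0.12 across genes, against -0.13 to 0.10 for other pairs, so over all genes the values show little pairing, although sex-linked genes split the numbers alike in both tissues. The labels do not tie a number to 1 embryo, so p-values cover only the spread among these samples. On simulated data the fit recovered 80% of genes changed by a log2 difference of 2 and 100% of those changed by 4. The changed genes were drawn from all genes tested, and the members spread more widely. The median SD of the differences by replicate number was 0.37 for all genes tested and 1.46 for the members. These shares therefore do not carry over to the members, Chgb included. Smaller differences, like those of all members but Chgb, were not simulated.

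The members and the gene lists were chosen with earlier results of these data known. Named genes are the 8 members, up to 3 tested genes with the smallest p per pathway list, fixed lineage genes, and the 10 genes most like the members. Resp18, Snap25, Scg3, Scg5, Chrnb4, Tubb3, Stmn2, Dcx, Htr3a, Chat, Slc5a7, Mc2r and Hsd3b6 were picked after their values were seen. So were Fabp7, Ednrb, Sox2 and Gata6 and the sex-linked genes. List genes missing from the table were not analysed here. Motif matches were counted with Python 3.11.15.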

Additional observations from a re-analysis of the deposited data

Results flagged for a closer look

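Among 54 groups of 4 arrays (27 genes in 2 tissues), 3 had an array set far apart from the others, where chance gives about 1 in 20 groups. Phox2a in ventral tissue was at 5.24 on replicate 1, and the gap to the next array took up 0.917 of the whole range of the ventral arrays. Cpe in dorsal tissue was at 7.86 on replicate 4, below the other dorsal arrays (gap 0.838 of the range). Sema3a in ventral tissue was at 6.01 on replicate 2, above the other ventral arrays (gap 0.831 of the range). Th, Dbh, Chga and Chgb did not meet this criterion, because ventral replicate 3 lay between replicate 1 and the other 2 arrays.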

How the results depend on the processing

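The count of 0 genes past the threshold became 4 with no replicate block, 4 with a random replicate block and 10 with the stricter filter, and ranged from 0 to 9 with 1 replicate number left out and from 0 to 20 with 1 array left out and no replicate block, the 20 being without ventral replicate 1 (8 without dorsal replicate 1 and 9 without dorsal replicate 4). The count of members past the threshold was 0 in all 20 alternatives, although 2 members, Ddc and Phox2a, were not tested under the stricter filter. Over the alternatives the lowest adjusted p of any member was 0.051, for Ddc without ventral replicate 2 and with no block. The differences ranged from 0.75 to 2.10 for Th, 0.04 to 2.16 for Dbh, 1.02 to 1.55 for Ddc, 0.25 to 1.25 for Hand1, 0.27 to 1.07 for Hand2, 0.48 to 1.70 for Chga and 1.13 to 2.93 for Chgb, all of these extremes coming from left-out arrays. Phox2a ranged from -0.13 to 0.26 and changed sign without replicate 1 (-0.13) and without ventral replicate 1 (-0.11). Rab3a ranged from -0.73 to 0.0013 with 1 replicate number left out and from -0.77 to 0.09 with 1 array left out, and changed sign without replicate 1 (0.0013) and without dorsal replicate 1 (0.090). Of the 19 other genes compared by name, 4 moved by over 1.5 times without ventral replicate 1 (Cyb561, Eya1, Rgs4 and Tbx20) and 1 to 3 without any other single array. Dropping the replicate block changed no call of a member. The number of arrays, 4 a tissue, limits the precision of each difference.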
